A study of Arabidopsis thaliana with 18 samples.

Results

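The CLC and SLAC genes of Arabidopsis thaliana encode anion channels and exchangers that move nitrate and chloride across the vacuolar, endomembrane, chloroplast and plasma membranes. The 10 genes described here were picked out by gene identifier, as a set chosen with earlier results of these data known, from the 32744 genes of the deposited count tables: 7 CLC genes (CLC-A to CLC-G) and 3 genes of the SLAC family (SLAC1, SLAH1 and SLAH3). Rosettes were harvested when the first flower buds could be seen, and messenger RNA was counted as 3′ tags in 18 libraries. The 6 groups of 3 libraries were the wild type (WT) and the era1 mutant, each supplied with nitrate at 10, 2 or 0 mM on potting soil. No ecotype is named for WT. The era1 label describes a T-DNA insertional knock-out and prints the locus AT5G66470, which had 88 to 262 counts per library over both genotypes. ERA1 itself (AT5G40280), the beta subunit of protein farnesyltransferase, was low in the mutant: era1 libraries held 6 to 17 of its counts, and WT libraries held 42 to 54.

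CLC proteins are either chloride channels or exchangers that swap an anion for protons. In plant cells the exchangers of the vacuolar membrane use the proton gradient made by the vacuolar pumps to load nitrate or chloride into the vacuole, the main nitrate store of a leaf cell. SLAC1 and its homologues are slow-type anion channels of the plasma membrane that let anions leave the cell. In the abscisic acid response of guard cells, SLAC1 is opened by the kinase OST1, and SLAC1 and SLAH3 by calcium-dependent kinases. Stomata close as anions leave. The era1 mutant is known for guard cells that respond strongly to abscisic acid.

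The count tables hold no coordinates, and the submitters' processing notes name the genome TAIR10. Positions and sequences below are those of RefSeq's assembly TAIR10.1 with its own annotation. The 250 bases before the annotated start are shown for the 4 members whose response to 0 mM differed between the genotypes, so that the stretch in front of each can be set beside its levels. They are printed 5′ to 3′ on the strand of the gene, and capitals mark the 1 motif match found in them.
CLC-A, chr5:16385425-16385674, minus strand: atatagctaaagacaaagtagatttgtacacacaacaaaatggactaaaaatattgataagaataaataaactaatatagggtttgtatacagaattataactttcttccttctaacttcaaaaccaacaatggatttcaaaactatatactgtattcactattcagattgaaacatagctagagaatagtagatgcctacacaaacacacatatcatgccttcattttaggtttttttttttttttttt
CLC-B, chr3:10023681-10023930, plus strand: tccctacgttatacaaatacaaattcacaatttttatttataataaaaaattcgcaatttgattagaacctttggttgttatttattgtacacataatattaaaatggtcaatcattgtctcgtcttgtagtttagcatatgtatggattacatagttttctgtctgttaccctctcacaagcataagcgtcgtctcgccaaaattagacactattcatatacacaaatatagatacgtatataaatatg
CLC-E, chr4:16839376-16839625, minus strand: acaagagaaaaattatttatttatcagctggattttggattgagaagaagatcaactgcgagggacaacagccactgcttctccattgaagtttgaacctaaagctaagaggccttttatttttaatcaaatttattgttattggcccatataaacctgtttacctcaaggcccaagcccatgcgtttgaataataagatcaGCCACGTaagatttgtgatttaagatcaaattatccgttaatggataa
SLAH3, chr5:8122915-8123164, minus strand: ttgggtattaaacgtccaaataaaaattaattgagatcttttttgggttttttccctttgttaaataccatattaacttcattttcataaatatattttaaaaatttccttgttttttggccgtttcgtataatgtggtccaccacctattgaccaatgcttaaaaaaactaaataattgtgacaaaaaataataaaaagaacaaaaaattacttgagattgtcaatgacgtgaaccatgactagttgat

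Motif letters were searched on both strands of this window in all 10 members and in 27443 promoters of the annotation. The evening element AAAATATCT, held by 2.36% of all these promoters, was in 0 of the 10 windows. The CCA1 binding site AAAAATCT (6.69% of promoters) and a pair of nitrate-responsive half-sites, CTT and AAG with 10 bases between them (8.02%), were also in 0 of 10. The G-box CACGTG (6.49% of promoters) was in 1 window, that of SLAH1. The abscisic acid response element core ACGTGNC (8.57% of promoters) was in 1 window, that of CLC-E, on the opposite strand and 48 to 42 bases before the start; it is the stretch GCCACGT in capitals. The G-box and this core share the letters ACGTG and can overlap. Such a match is letters in a window and not a tested site.

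Levels are given in CPM, read counts scaled for library size, in the order of replicates 1 to 3, and group values as mean ± SD with n = 3. Changes are log2 fold changes ± SE, each with its false discovery rate (FDR) from edgeR's quasi-likelihood test. "Rose" and "fell" are used at an FDR under 0.05. Libraries held 4748044 to 6306900 gene counts and 20738 to 21486 detected genes. Green leaf genes were abundant in each group, while 8 root markers summed to 8.999 to 64.3 CPM and 6 flower markers to 0.715 to 7.55 CPM per library. The 2 mM libraries stood apart from the others along the first principal component, which held 35.9% of the variance. The 4 morning clock genes CCA1, LHY, RVE8 and PRR9 summed to 51.9 to 68.9 CPM in the 6 libraries at 2 mM, against 584 to 713 CPM at 10 mM and 1101 to 1192 CPM at 0 mM. At 2 against 10 mM 3 of the 4 fell in each genotype, beside 28.3% of all tested genes in WT and 26.5% in era1. PRR9 did not fall: its means at 2 and 10 mM were 3.18 and 2.44 CPM in WT and 3.93 and 2.73 CPM in era1. Dose and clock state at harvest cannot be told apart here. Replicates are called biological without mention of separate plants or pools, so a p-value covers only the spread among these libraries. In whole rosettes, fewer cells of a type and less RNA per cell cannot be told apart.

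Of the 10 members, 9 had enough counts to be tested and SLAH1 did not. In WT at 0 against 10 mM, 6 of the 9 rose and 1 fell, while 26.9% of the 18358 tested genes were higher and 26.7% lower. At 2 against 10 mM in WT, 4 rose and 2 fell, with 28.8% and 28.3% of all genes. In era1, 4 rose and 2 fell at 0 against 10 mM (27.5% and 28.0% of all genes), and 5 rose and 2 fell at 2 against 10 mM (25.5% and 26.5%). Between 0 and 2 mM, 1 member was higher and 1 lower in WT (20.3% and 22.1% of all genes), and 3 were higher and 2 lower in era1 (23.7% and 26.0%). The median log2 fold change of the 9 members at 0 against 10 mM was 1.03 in WT and 0.18 in era1, against 0.012 and 0.0031 over all tested genes. At 2 against 10 mM the medians were 0.99 in WT and 0.77 in era1, against 0.011 and -0.026 over all genes. The comparisons with 10 mM within a genotype share its 10 mM libraries.

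**Figure D1:**
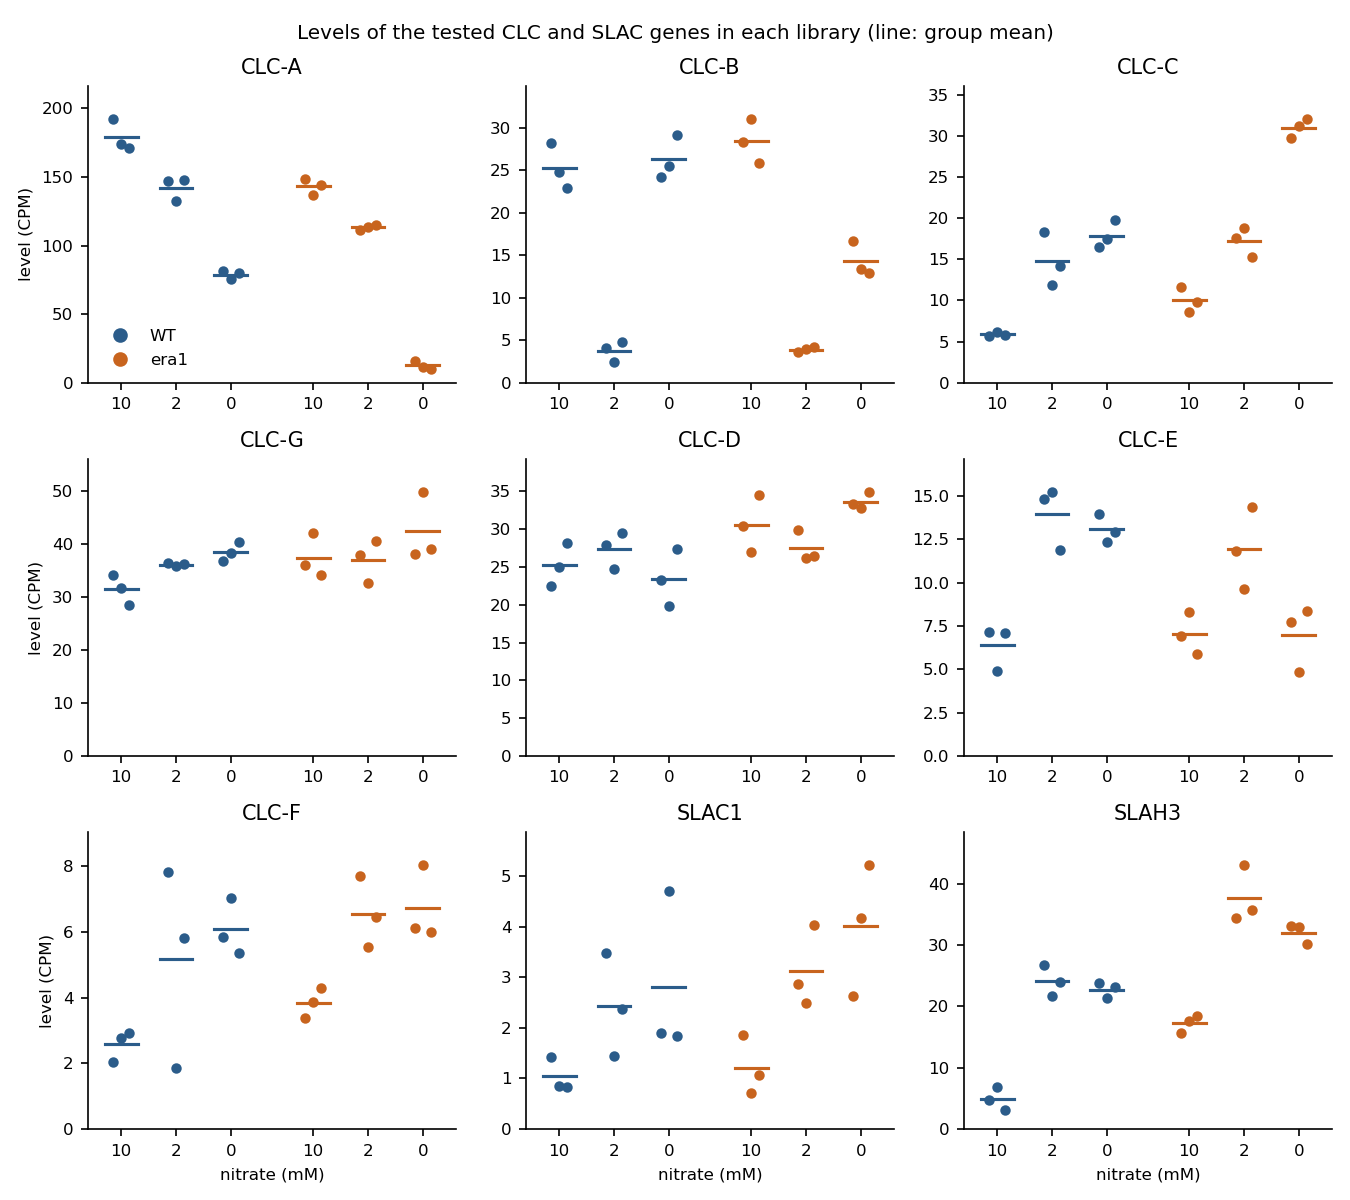
Level in CPM (vertical axis, from 0) of each tested member in each library, by nitrate dose in mM, with WT in blue and era1 in orange; points are libraries and lines are means of 3. CLC-A was lowest in era1 at 0 mM, CLC-B was low at 2 mM in both genotypes, and CLC-C and SLAH3 were lowest in WT at 10 mM.

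CLC-A (AT5G40890, chr5:16381314-16385424, minus strand, 5 or 6 exons by transcript) encodes the exchanger that loads nitrate into the vacuole against protons. In WT its level was 192, 174 and 171 CPM at 10 mM, 147, 132 and 147 CPM at 2 mM, and 81.4, 75.4 and 79.7 CPM at 0 mM. In era1 it was 149, 137 and 144 CPM at 10 mM, 111, 113 and 115 CPM at 2 mM, and 16.1, 11.6 and 9.95 CPM at 0 mM. Within each genotype the 3 doses did not overlap, and the level went down with the dose. Ordered by mean, the groups ran from WT at 10 mM through era1 at 10 mM, WT at 2 mM, era1 at 2 mM and WT at 0 mM to era1 at 0 mM, and the only neighbours that overlapped were era1 at 10 mM and WT at 2 mM. From 10 to 2 mM CLC-A fell by 0.33 ± 0.087 on the log2 scale in WT (FDR = 0.00212) and by 0.34 ± 0.088 in era1 (FDR = 0.00217). From 10 to 0 mM it fell by 1.18 ± 0.091 in WT (FDR = 1.28e-10) and by 3.52 ± 0.11 in era1 (FDR = 6.76e-18), where its level at 0 mM was 11.5-fold below that of era1 at 10 mM.

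CLC-A was also lower in era1 than in WT at each dose. The difference was -0.32 ± 0.087 with 10 mM nitrate (FDR = 0.00627) and -0.33 ± 0.089 with 2 mM (FDR = 0.00836). With 0 mM supplied it was -2.66 ± 0.12 (FDR = 2.75e-15), a 6.32-fold lower level. The response to 0 mM differed between the genotypes by -2.34 ± 0.15 (FDR = 2.20e-11). The response to 2 mM differed by -0.0043 ± 0.12 (FDR = 0.989), with an approximate 95% interval of -0.25 to 0.24. Of the 5 green leaf genes RCA, PSBP-1, LHCB5, LHCB4.1 and LHCA1, 5 were below WT in era1 with 0 mM (24.6% of all tested genes), 4 with 2 mM (11.1%) and 3 with 10 mM (14.3%). Their summed level at 0 mM was 4655 to 5406 CPM in era1 and 9241 to 10024 CPM in WT. Their part in the CLC-A result was not tested. CLC-A overlaps AT5G40880 on the opposite strand, which had 11 to 45 counts per library and rose in era1 at 0 against 10 mM by 0.71 ± 0.24 (FDR = 0.0156).

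CLC-B (AT3G27170, chr3:10023931-10027198, plus strand, 6 exons) is the near relative of CLC-A that also exchanges nitrate for protons at the vacuolar membrane. Its level in WT was 28.2, 24.8 and 22.9 CPM at 10 mM, 4.14, 2.47 and 4.74 CPM at 2 mM and 24.2, 25.5 and 29.2 CPM at 0 mM. In era1 the levels were 28.3, 31.0 and 25.9 CPM at 10 mM, 3.58, 3.93 and 4.19 CPM at 2 mM and 16.6, 13.3 and 12.9 CPM at 0 mM. The 6 libraries at 2 mM lay below the other 12, and era1 at 0 mM lay between those and the rest. From 10 to 2 mM CLC-B fell by 2.74 ± 0.19 in WT (FDR = 4.84e-12) and by 2.86 ± 0.17 in era1 (FDR = 5.18e-13), a 6.70-fold and a 7.24-fold lower level. CLC-B did not follow the order of dose, and its low values stood in the libraries in which the morning clock genes CCA1, LHY and RVE8 were low. The part of that difference in the CLC-B result was not tested.

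The log2 fold change of CLC-B at 0 against 10 mM was 0.054 ± 0.13 in WT (FDR = 0.746), where the libraries overlapped. In era1 CLC-B fell by 0.99 ± 0.13 (FDR = 7.83e-07). The genotypes differed in that response by -1.05 ± 0.19 (FDR = 9.98e-05). Era1 was 1.84-fold lower than WT at 0 mM (-0.88 ± 0.14, FDR = 7.75e-06). The difference was 0.17 ± 0.13 with 10 mM nitrate (FDR = 0.346) and 0.055 ± 0.25 with 2 mM (FDR = 0.912), and libraries of the genotypes overlapped at both. AT3G27180, which overlaps CLC-B on the opposite strand, had 67 to 166 counts. It fell together with CLC-B at 2 against 10 mM in WT (-0.65 ± 0.15, FDR = 6.52e-04) and era1 (-0.55 ± 0.14, FDR = 0.00182), and at 0 against 10 mM in era1 (-0.74 ± 0.14, FDR = 9.15e-05). It also fell at 0 against 10 mM in WT (-0.84 ± 0.15, FDR = 4.90e-05), and its difference between the genotypes at 0 mM was 0.14 ± 0.16 (FDR = 0.468). Whether reads of the overlap were shared was not tested.

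CLC-C (AT5G49890, chr5:20288055-20292432, minus strand, 8 exons) encodes a vacuolar transporter of guard cells and other cells that is known for chloride transport and salt tolerance. It had 5.72, 6.21 and 5.83 CPM in WT at 10 mM, 18.3, 11.9 and 14.2 CPM at 2 mM and 16.4, 17.4 and 19.8 CPM at 0 mM. In era1 it had 11.6, 8.64 and 9.83 CPM at 10 mM, 17.5, 18.7 and 15.3 CPM at 2 mM and 29.8, 31.2 and 32.0 CPM at 0 mM. The libraries at 10 mM were the lowest in each genotype, and the order of the 6 means was the reverse of that of CLC-A, with era1 at 0 mM highest and WT at 10 mM lowest. The groups WT at 0 mM, era1 at 2 mM and WT at 2 mM overlapped as neighbours in that order. From 10 to 0 mM CLC-C rose by 1.59 ± 0.17 in WT (FDR = 3.53e-08) and by 1.62 ± 0.14 in era1 (FDR = 3.76e-10), 3.02-fold and 3.08-fold.

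The rise of CLC-C at 2 against 10 mM was 1.32 ± 0.18 in WT (FDR = 9.18e-07) and 0.77 ± 0.15 in era1 (FDR = 1.12e-04). From 2 to 0 mM it rose in era1 (0.85 ± 0.13, FDR = 3.07e-06), while in WT the value was 0.28 ± 0.15 (FDR = 0.134). Without library 1 of WT at 2 mM the WT value was 0.48 and passed (FDR = 0.0178). Era1 was above WT at 10 mM (0.76 ± 0.19, FDR = 0.00308) and at 0 mM (0.79 ± 0.13, FDR = 1.32e-05), and the difference at 2 mM was 0.22 ± 0.14 (FDR = 0.325). The tests of whether the dose responses differed gave 0.030 ± 0.24 at 0 mM (FDR = 0.936) and -0.55 ± 0.24 at 2 mM (FDR = 0.124). AT5G49880, on the opposite strand of the locus with 161 to 329 counts, fell in WT at 0 against 10 mM (-0.57 ± 0.11, FDR = 1.03e-04) and was higher in era1 than in WT at 0 mM (0.52 ± 0.11, FDR = 2.56e-04).

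CLC-G (AT5G33280, chr5:12549143-12552561, plus strand, 7 exons) is a vacuolar relative of CLC-C linked to chloride handling. It ran from 28.5 to 49.8 CPM over the 18 libraries, and its highest group mean was 1.35-fold its lowest. In WT it was 31.4 ± 2.81 CPM at 10 mM and 38.5 ± 1.73 CPM at 0 mM (0.29 ± 0.12, FDR = 0.0383). This call was lost without library 2 or 3 of WT at 0 mM or library 2 or 3 of WT at 10 mM (FDR = 0.0607 to 0.161) and with DESeq2 (adjusted p = 0.0591). In era1 the means were 37.5 ± 4.18, 37.1 ± 4.05 and 42.4 ± 6.44 CPM at 10, 2 and 0 mM, with overlapping libraries, and the value at 0 against 10 mM passed in 1 of the fits that left out a library, that without library 1 of era1 at 0 mM (0.28, FDR = 0.0492). Its genotype differences of 0.040 to 0.25 at single doses did not pass the test (FDR = 0.107 to 0.851).

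CLC-D (AT5G26240, chr5:9189425-9194758, plus strand, 22 exons) acts at the trans-Golgi network, a sorting compartment that is acidified. Its level was 25.2 ± 2.82, 27.4 ± 2.47 and 23.5 ± 3.79 CPM at 10, 2 and 0 mM in WT, and no dose comparison in WT passed the test (FDR = 0.179 to 0.528), except that of 0 against 2 mM without library 3 of WT at 0 mM (-0.34, FDR = 0.0480). In era1 it was 30.6 ± 3.76, 27.5 ± 2.05 and 33.6 ± 1.11 CPM. At 0 mM the 3 era1 libraries, with 33.3, 32.8 and 34.9 CPM, all lay above the WT libraries, with 23.2, 19.8 and 27.4 CPM (0.52 ± 0.12, FDR = 8.87e-04). The difference at 10 mM was 0.28 ± 0.12 (FDR = 0.0876), and it passed without library 2 of era1 at that dose (0.36, FDR = 0.0390). CLC-D rose from 2 to 0 mM in era1 by 0.29 ± 0.12 (FDR = 0.0392). Its FDR there was 0.0969 with DESeq2 and 0.0529 to 0.117 without any 1 of the era1 libraries at 0 mM, library 2 or 3 of era1 at 2 mM, or library 2 of WT at 10 mM.

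CLC-F (AT1G55620, chr1:20787074-20791208, minus strand, 8 exons), of a more distant branch of the family and placed at the Golgi, was near the lower end of what could be tested, with 9 to 50 counts per library. In WT it was 2.04, 2.78 and 2.91 CPM at 10 mM, 7.84, 1.85 and 5.82 CPM at 2 mM and 5.86, 7.05 and 5.36 CPM at 0 mM. In era1 it was 3.85 ± 0.458, 6.56 ± 1.09 and 6.72 ± 1.14 CPM at 10, 2 and 0 mM. The libraries at 0 mM lay above those at 10 mM in both genotypes, while WT at 2 mM spread over both. From 10 to 0 mM CLC-F rose by 1.23 ± 0.34 in WT (FDR = 0.00338) and by 0.81 ± 0.29 in era1 (FDR = 0.0199), and from 10 to 2 mM by 0.99 ± 0.35 in WT (FDR = 0.0203) and by 0.77 ± 0.29 in era1 (FDR = 0.0291). The WT call at 2 mM was lost without library 1 or 3 of WT at 2 mM or library 1 of WT at 10 mM (FDR = 0.0693 to 0.225), and its value was 0.55 without the first of these. The era1 call at 0 mM was lost without library 2 at 0 mM or 1 at 10 mM (FDR = 0.0760 to 0.0883), and that at 2 mM without library 1 or 3 at 2 mM or 1 or 2 at 10 mM (FDR = 0.0556 to 0.111). Genotype differences at single doses did not pass the test (FDR = 0.248 to 0.678).

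CLC-E (AT4G35440, chr4:16835986-16839375, minus strand, 6 or 7 exons by transcript) is the member found in chloroplast thylakoids, the membranes of the light reactions. In WT its level was 7.15, 4.92 and 7.08 CPM at 10 mM, 14.8, 15.2 and 11.9 CPM at 2 mM and 14.0, 12.3 and 12.9 CPM at 0 mM. In era1 it was 6.92, 8.29 and 5.90 CPM at 10 mM, 11.8, 9.64 and 14.4 CPM at 2 mM and 7.71, 4.82 and 8.37 CPM at 0 mM. WT at 2 and 0 mM and era1 at 2 mM overlapped as neighbours and lay above era1 at 10 and 0 mM and WT at 10 mM, which overlapped among themselves. From 10 to 2 mM CLC-E rose by 1.12 ± 0.21 in WT (FDR = 5.77e-05) and by 0.77 ± 0.20 in era1 (FDR = 0.00192). From 10 to 0 mM it rose by 1.03 ± 0.21 in WT (FDR = 1.76e-04), and in era1 the value was -0.016 ± 0.21 (FDR = 0.954).

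The genotypes differed in the 0 mM response of CLC-E by -1.05 ± 0.30 (FDR = 0.00808), and era1 was 1.88-fold lower than WT at 0 mM (-0.91 ± 0.19, FDR = 3.89e-04). The genotype difference was 0.14 ± 0.23 with 10 mM nitrate (FDR = 0.692) and -0.22 ± 0.18 with 2 mM (FDR = 0.438). The green leaf genes were lower in the same era1 libraries, as given for CLC-A, and their part was not tested here either. AT4G35430, annotated on the same strand and overlapping CLC-E, had 0 counts in each library.

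**Figure D2:**
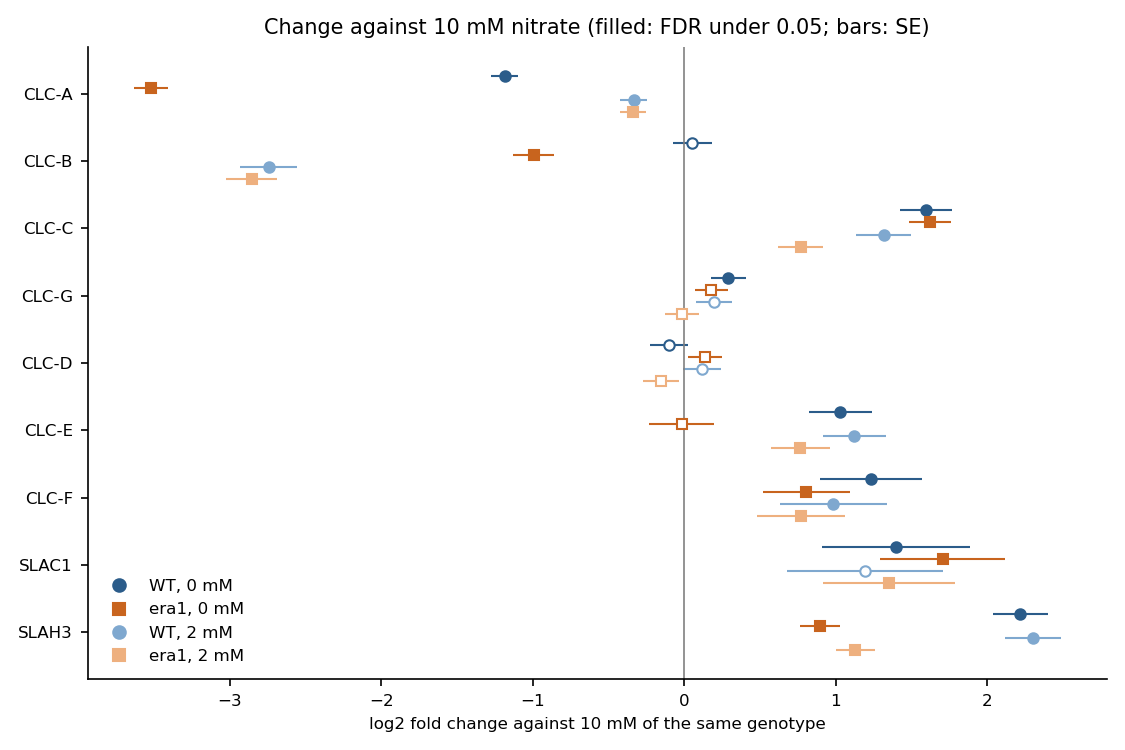
Log2 fold change of each tested member at 0 and 2 mM against 10 mM of the same genotype (horizontal axis), circles for WT and squares for era1, with SE bars; filled symbols have an FDR under 0.05. CLC-A and SLAH3 lie far apart between the genotypes at 0 mM (-1.18 and -3.52 for CLC-A, 2.22 and 0.89 for SLAH3), and CLC-B lies at -2.74 and -2.86 at 2 mM.

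SLAC1 (AT1G12480, chr1:4257268-4259300, minus strand, 3 exons), the guard cell channel that closes stomata, had few counts, from 4 to 33 per library. At 10 mM it had 4 to 7 in WT and 4 to 11 in era1, so it passed the filter on low counts mostly through libraries at 2 and 0 mM. In WT the counts came to 1.43, 0.857 and 0.833 CPM at 10 mM, 3.48, 1.44 and 2.37 CPM at 2 mM and 1.89, 4.70 and 1.85 CPM at 0 mM. In era1 they came to 1.86, 0.705 and 1.07 CPM at 10 mM, 2.86, 2.499 and 4.03 CPM at 2 mM and 2.63, 4.18 and 5.21 CPM at 0 mM. Libraries at 2 and 0 mM lay above those at 10 mM in both genotypes, but neighbouring groups in the order of all 6 means overlapped throughout. From 10 to 0 mM SLAC1 rose by 1.40 ± 0.49 in WT (FDR = 0.0186) and by 1.71 ± 0.41 in era1 (FDR = 0.00112). The WT value was 0.83 without library 2 of WT at 0 mM (FDR = 0.198), and its FDR was 0.0591 to 0.0656 without library 2 or 3 of WT at 10 mM.

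SLAC1 rose in era1 at 2 against 10 mM (1.35 ± 0.43, FDR = 0.0112), a call lost without library 2 of era1 at 10 mM or library 3 at 2 mM (FDR = 0.0623 to 0.0682). In WT the value was 1.19 ± 0.51 (FDR = 0.0503), at the edge of the threshold: it passed with upper quartile scaling (FDR = 0.0442), with no filter on low counts (0.0286), with a stricter filter (0.0491) and in 10 of the 18 fits that left out 1 library. Genotype differences of 0.22 to 0.53 did not pass the test (FDR = 0.227 to 0.808), but that at 0 mM was 1.10 and passed without library 2 of WT (FDR = 0.0288). The 7 guard cell markers were MYB60, FAMA, KAT1, KAT2, GORK, HT1 and ALMT12. In WT at 0 against 10 mM, 0 of them rose and 2 fell, and in era1 0 rose and 4 fell. Of all tested genes, 26.9% rose and 26.7% fell in WT, and 27.5% and 28.0% in era1. The WT count of falls is near that of all genes. The summed level of the markers was 163 to 183 CPM at 10 mM and 105 to 110 CPM at 0 mM in WT. In era1 it was 119 to 125 and 78.0 to 96.9 CPM, with 0 of the 7 genes at 0 in any group. The potassium channel gene KAT1 fell by 1.52 ± 0.11 in WT (FDR = 8.65e-11). Its mean there was 82.9 CPM at 10 mM and 29.0 CPM at 0 mM, so it weighs on the sum. KAT2 was the other marker called in WT (-0.64 ± 0.26, FDR = 0.0388), and ALMT12 was the only marker above 0 (0.27 ± 0.17, FDR = 0.196). The part of guard cell content in the SLAC1 result was not tested. AT1G12470 overlaps SLAC1 on the other strand with 170 to 262 counts, and its value at 0 against 10 mM was -0.42 ± 0.090 in WT (FDR = 3.78e-04) and -0.30 ± 0.087 in era1 (FDR = 0.00494).

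SLAH3 (AT5G24030, chr5:8118317-8122914, minus strand, 5 or 6 exons by transcript) encodes the nitrate-permeable channel of guard cells and roots that is itself activated by nitrate. Its level in WT was 4.70, 6.85 and 3.12 CPM at 10 mM, 26.8, 21.8 and 23.9 CPM at 2 mM and 23.8, 21.4 and 23.1 CPM at 0 mM. In era1 it was 15.7, 17.6 and 18.4 CPM at 10 mM, 34.4, 43.0 and 35.8 CPM at 2 mM and 33.1, 32.9 and 30.2 CPM at 0 mM. WT at 10 mM was the lowest group and era1 at 2 mM the highest, and the only neighbours in the order that overlapped were WT at 2 and at 0 mM. In WT SLAH3 rose by 2.22 ± 0.18 at 0 mM (FDR = 3.89e-10) and by 2.302 ± 0.18 at 2 mM (FDR = 8.66e-11) against 10 mM, 4.65-fold and 4.93-fold. In era1 the rises were 0.89 ± 0.13 (FDR = 2.75e-06) and 1.13 ± 0.13 (FDR = 6.21e-08), from a higher level at 10 mM.

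Both of these responses of SLAH3 were smaller in era1 than in WT, by a difference of -1.32 ± 0.23 at 0 mM (FDR = 8.67e-05) and -1.17 ± 0.23 at 2 mM (FDR = 0.00100). SLAH3 was 3.52-fold higher in era1 than in WT with 10 mM nitrate (1.82 ± 0.19, FDR = 7.86e-08). The ratio was 1.56 with 2 mM (0.64 ± 0.13, FDR = 4.96e-04) and 1.41 with 0 mM (0.49 ± 0.13, FDR = 0.00233), and the libraries of the genotypes did not overlap at any dose. Between 0 and 2 mM the value was -0.084 ± 0.14 in WT (FDR = 0.659) and -0.23 ± 0.12 in era1 (FDR = 0.103).

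SLAH1 (AT1G62280, chr1:23007044-23008610, minus strand, 2 exons), known from the root vasculature where it works with SLAH3 in loading chloride into the xylem, had 1 count in 1 library of WT at 10 mM, 1 count in 1 library of era1 at 10 mM and 0 counts in the other 16. A count of 0 allows up to 3 counts, which is 0.474 to 0.653 CPM by library, for counting error only. Of the 8 root markers, RHD6 had 0 counts in all 6 groups and COBL9, EXPA7 and CASP2 in some, while PYK10, PIP2-4, CASP1 and NRT2.1 had counts in each group. PYK10 had the most, with group means of 10.4 to 38.5 CPM. The other genes of the SLAC family were also scarce. SLAH4 (AT1G62262) had 0 to 6 counts and was not tested. SLAH2 (AT4G27970), a nitrate channel described in roots, had 0 to 16 counts and rose at 2 against 10 mM in WT (2.12 ± 0.55, FDR = 0.00188) and era1 (1.41 ± 0.44, FDR = 0.00911). At 2 mM it had 9 to 12 counts in WT and 10 to 16 in era1, and at 10 mM 0 to 4 and 2 to 7. SLAH2 passed the filter on low counts only through its 2 mM libraries, so the rise there gives no support of its own. Its values at 0 against 10 mM were 0.62 ± 0.67 in WT (FDR = 0.457) and -0.29 ± 0.55 in era1 (FDR = 0.685).

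Across the members, era1 against WT gave 2 higher and 1 lower of the 9 at 10 mM (15.4% and 14.3% of all tested genes), 1 higher and 1 lower at 2 mM (10.9% and 11.1%) and 3 higher and 3 lower at 0 mM (24.5% and 24.6%). CLC-A was among the lower and SLAH3 among the higher members at each dose. Averaged over the doses, 5 of 9 members differed between the genotypes, beside 47.1% of all genes. CLC-A (-1.10 ± 0.057) and CLC-E (-0.33 ± 0.12) were lower, and CLC-C (0.59 ± 0.089), CLC-D (0.27 ± 0.070) and SLAH3 (0.98 ± 0.087) were higher. The CLC-E average was not called without library 1 or 3 of WT at 10 mM or library 2 of era1 at 0 mM (FDR = 0.0543 to 0.0562). Other averages passed when 1 library was left out: CLC-B without library 2 of WT at 2 mM or 1 of era1 at 0 mM (FDR = 0.0234 to 0.0406), CLC-F without library 1 of WT at 2 mM (FDR = 0.0213), and CLC-G without library 3 of era1 at 10 mM or 2 at 2 mM (FDR = 0.0363 to 0.0484). In the test of whether the response to 0 mM depended on genotype, 4 of 9 members passed, beside 34.9% of all genes, each with a value below 0: CLC-A, CLC-B, CLC-E and SLAH3. In the same test for 2 mM, SLAH3 was the 1 of 9 that passed, beside 15.8% of all genes.

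**Figure D3:**
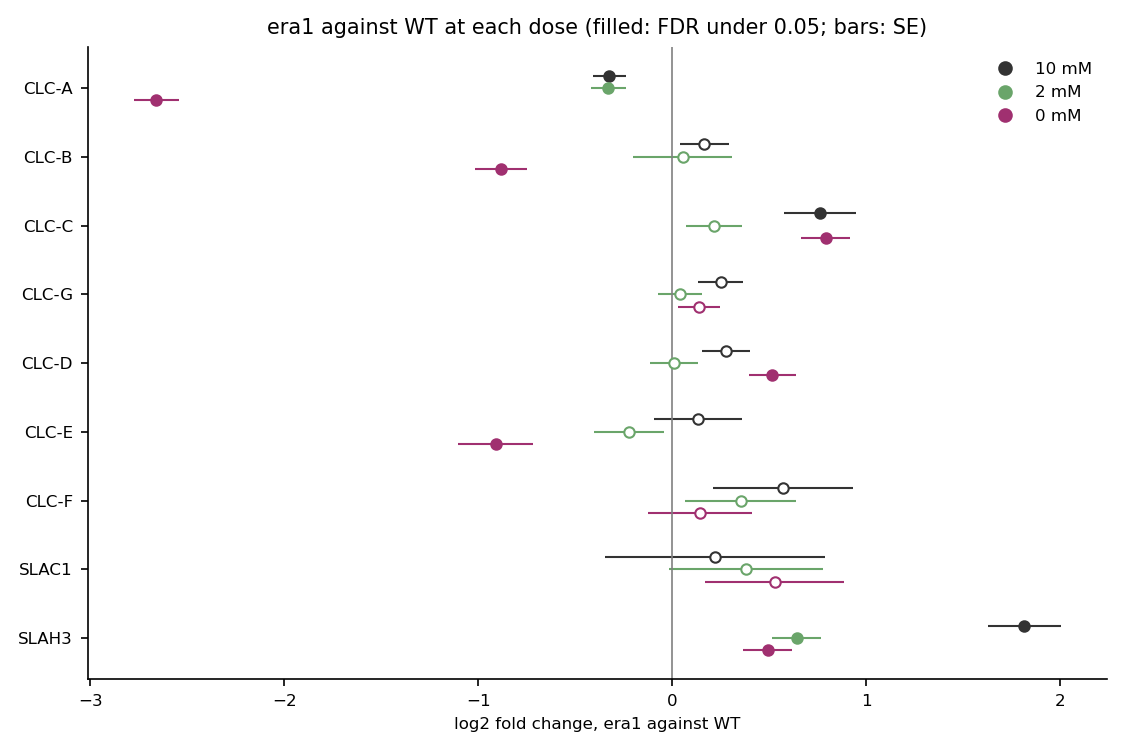
Log2 fold change of era1 against WT (horizontal axis) for each tested member at 10, 2 and 0 mM nitrate, with SE bars; filled symbols have an FDR under 0.05. CLC-A stands at -2.66 at 0 mM and at -0.32 and -0.33 at the other doses, and SLAH3 is above 0 at each dose with its highest value, 1.82, at 10 mM.

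The members differed in their profiles over the 6 groups. As a description, the root mean square difference between centred group means of log2(CPM + 0.5) was lowest for CLC-D and CLC-G (0.14), the members that varied least, followed by CLC-F and SLAC1 (0.22) and CLC-C and SLAC1 (0.25). It was highest for CLC-A and SLAH3 (1.93) and for CLC-A and CLC-C (1.92), and it was 1.81 between the related genes CLC-A and CLC-B. The same measure over the 6 group means was taken against 6962 other genes (6963 for SLAC1). These had a symbol and a mean of at least 5 CPM over the 18 libraries. Nearest to CLC-A were EXPA16 (AT3G55500, 0.23), an expansin, LBD38 (AT3G49940, 0.26), a nitrate-induced repressor of nitrate response genes, and ATCTH (AT2G25900, 0.36), with a median of 1.32 over all candidates. LBD38 had 45.5, 39.5 and 19.9 CPM at 10, 2 and 0 mM in WT and 27.4, 32.4 and 1.95 CPM in era1. That its lowest mean was also in era1 at 0 mM follows from its choice by nearness to CLC-A.

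For CLC-B the nearest were NIG1 (AT5G46830, 0.19), ERD9 (AT1G10370, 0.24), a glutathione transferase, and BETA-OHASE 2 (AT5G52570, 0.31), a carotene hydroxylase. ERD9 had 364, 55.3 and 362 CPM at 10, 2 and 0 mM in WT and 304, 38.5 and 164 CPM in era1. That it was lowest at 2 mM, as CLC-B was, follows from its choice by nearness to CLC-B. For CLC-C they were SPS1F (AT5G20280, 0.13), a sucrose phosphate synthase, SK1 (AT2G21940, 0.16), a shikimate kinase, and MGT1 (AT1G80900, 0.17), a magnesium transporter. For CLC-E they were NCED4 (AT4G19170, 0.075), PRA1.B6 (AT5G07110, 0.079) and APE2 (AT5G46110, 0.082), the triose phosphate translocator of the chloroplast. For SLAH3 they were MLO6 (AT1G61560, 0.25), RABA5E (AT1G05810, 0.25) and PSAT (AT4G35630, 0.27), a phosphoserine aminotransferase. CLC-F was nearest to IAR4 (AT1G24180, 0.062), NAC027 (AT1G64105, 0.085) and COX10 (AT2G44520, 0.12), and SLAC1 to JMJ18 (AT1G30810, 0.11), PDX2 (AT5G60540, 0.12) and UPL4 (AT5G02880, 0.13).

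**Figure D4:**
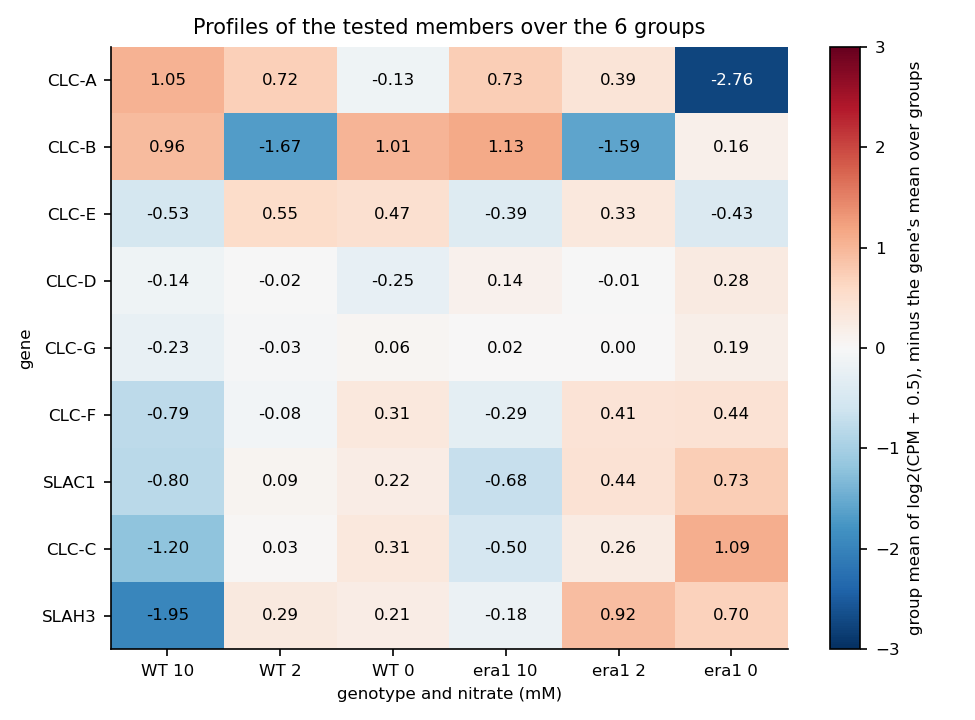
Group means of log2(CPM + 0.5) of the 9 tested members, each minus the mean of that gene over the 6 groups; rows are genes, columns are genotype and nitrate in mM, red is above and blue below the gene's own mean. CLC-A in era1 at 0 mM (-2.76) and SLAH3 in WT at 10 mM (-1.95) are the lowest cells.

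Genes that work with these transporters were read from lists. Of 11 regulators of SLAC channels, 8 rose and 0 fell in WT at 0 against 10 mM, beside 26.9% and 26.7% of all tested genes, with a median of 0.42 against 0.012 over all genes. The 8 were the activating kinases OST1, CPK3, CPK6, CPK21 and CPK23 and the inhibiting phosphatases ABI1, ABI2 and PP2CA, with OST1 at 0.74 ± 0.15 (FDR = 2.04e-04) and CPK3 at 0.70 ± 0.087 (FDR = 3.15e-07). In era1 6 rose and 1 fell, beside 27.5% and 28.0% of all genes, with a median of 0.36, CPK6 at 1.51 ± 0.15 (FDR = 4.98e-09) and CPK23 at 1.01 ± 0.17 (FDR = 1.44e-05). From 10 to 2 mM 5 rose and 1 of the 11 fell in WT (28.8% and 28.3% of all genes), and 5 rose and 2 fell in era1 (25.5% and 26.5%).

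The 5 genes of vacuolar proton pumping, whose gradient drives the CLC exchangers, gave 4 higher and 1 lower in WT at 0 against 10 mM (median 0.42) and 1 higher and 2 lower in era1 (median -0.027). Of all genes, 26.9% were higher and 26.7% lower in WT, and 27.5% and 28.0% in era1, which the era1 count is near. At 2 against 10 mM 4 pump genes were higher and 0 lower in WT, and 1 and 2 in era1, beside 28.8%, 28.3%, 25.5% and 26.5% of all genes. At 0 against 10 mM the pyrophosphatase AVP1 rose by 0.71 ± 0.069 in WT (FDR = 6.49e-09). In era1 AVP1 fell by 0.25 ± 0.069 (FDR = 0.00347). The pump subunit VHA-A2 rose at 0 against 10 mM by 1.21 ± 0.14 in WT (FDR = 1.55e-07). Its rise in era1 was 0.47 ± 0.13 (FDR = 0.00263). Of 8 other anion transporters, 5 rose and 0 fell in WT at 0 against 10 mM (median 0.63), and 4 rose and 1 fell in era1 (median 0.48), beside the same shares of all genes as for the pumps. At 2 against 10 mM 3 of the 8 rose and 2 fell in WT, and 2 rose and 1 fell in era1, counts near the shares of all genes. At 0 against 10 mM the vacuolar nitrate transporter NRT2.7 rose by 1.32 ± 0.14 in WT (FDR = 1.88e-08). In era1 its rise was 0.77 ± 0.13 (FDR = 2.07e-05). From 10 to 2 mM the vacuolar malate transporter TDT fell by 1.34 ± 0.093 in WT (FDR = 6.72e-12) and by 1.09 ± 0.089 in era1 (FDR = 1.72e-10). The vacuolar channel ALMT9 rose by 1.36 ± 0.21 in WT (FDR = 4.74e-06) and by 0.84 ± 0.19 in era1 (FDR = 4.49e-04). Neither followed the order of dose. At 10, 2 and 0 mM TDT had means of 212, 83.7 and 251 CPM in WT and 229, 108 and 149 CPM in era1. Those of ALMT9 were 6.77, 17.4 and 8.55 CPM in WT and 9.33, 16.8 and 7.39 CPM in era1. The part of the clock difference at 2 mM was not tested.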

How the data were processed

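The members and gene lists were chosen with earlier results of these data known. RNA was selected by its polyA tail and sequenced from the 3′ end (QuantSeq, single reads, stranded kit), per the labels' protocols. The submitters' processing notes name TopHat2 and TAIR10; versions, annotation and the strand setting of counting were not given there. The deposited values are raw counts of reads per gene by the authors, for 32744 genes with 5 summary counters. These counters were left out of all totals; reads outside genes were 3.75% to 5.72%, ambiguous reads 0.116% to 0.141% and reads without a unique alignment 1.89% to 5.33%. Counts were not divided by length, and levels were not compared between genes. In the TAIR10.1 annotation 4 members overlap a gene on the opposite strand and 1 a gene on the same strand; with the strand setting unknown, their reads could be shared.

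Tests used edgeR 4.0.16 in R 4.3.3 (glmQLFit, glmQLFTest, TMM scaling, filterByExpr by group with minimum count 10 and minimum total 15) in 1 model of 6 groups and 18 libraries, for 12 contrasts over 18358 genes, each with Benjamini-Hochberg adjustment. The SE is the absolute log2 fold change divided by the square root of F. Alternatives were other scalings and filters, DESeq2 1.42.0, other sets of libraries, a replicate block and each library left out. Besides the 10 members, genes were named as label check, as SLAH2 and SLAH4, as overlapping genes, as markers, as the 3 nearest profiles of members with a called log2 change of at least 1, or as up to 2 list genes per contrast with the largest called change, of which some are given in the other genotype too. The 8 SLAC regulators that rose were named after their values were seen. Of 82 listed genes 72 were used, and 10 were not, as they were not found in the RefSeq table by ID and name. The genes of the label check were kept without regard to this match. Replicate numbers were not taken as pairs: same-numbered libraries deviated together with r from -0.11 to 0.15, and 1 of 45 pairs was over 0.1. Libraries of a group differed by more than sampling noise (chi-square per degree of freedom 1.50 to 4.44). A planned comparison of protein sequences was not made.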

Additional observations from a re-analysis of the deposited data

Results flagged for a closer look

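The response to nitrate supply differed between WT and era1, by edgeR's test of that difference itself, in 4 of 9 members at 0 against 10 mM and in 1 of 9 at 2 against 10 mM. Over all tested genes the shares were 34.9% and 15.8%, so these counts do not set the members apart. For CLC-A the difference of log2 fold changes was -2.34 (FDR = 2.20e-11), the fall in era1 being the larger. For CLC-B it was -1.05 (FDR = 9.98e-05) and for CLC-E -1.05 (FDR = 0.00808). For SLAH3 it was -1.32 at 0 mM (FDR = 8.67e-05) and -1.17 at 2 mM (FDR = 0.00100), with the rise in WT the larger; these 2 tests share the 10 mM libraries.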

How the results depend on the processing

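The number of members past the threshold stayed within 1.5 times its reported value in all 314 combinations of comparison and alternative. Leaving out 1 library gave 5 to 7 members in WT at 0 against 10 mM, 5 to 7 at 2 against 10 mM and 2 to 3 at 0 against 2 mM, and in era1 5 to 7, 5 to 7 and 4 to 5. For era1 against WT it gave 3 to 4, 2 to 2 and 6 to 7 members at 10, 2 and 0 mM and 4 to 6 on average, and for the dependence on genotype 4 to 4 at 0 mM and 1 to 1 at 2 mM. Of 879 single values under the other alternatives, 861 kept their direction and side of the threshold, 2 were no longer past it (CLC-G and CLC-D with DESeq2), 3 passed newly (SLAC1 in WT at 2 mM) and 13 changed sign, 0 of them past the threshold. CLC-G in era1 at 2 against 10 mM was -0.012 and became 0.00304 with RLE scaling, 0.00263 with DESeq2, 0.0119 with only the groups compared and 0.0140 with nuclear genes only. CLC-A in the dependence of the 2 mM response on genotype was -0.0043 and became 0.0141 with RLE scaling, 0.0142 with DESeq2, 0.0319 with no filter, 0.0294 with only the groups compared and 0.0259 with nuclear genes only. CLC-E in era1 at 0 against 10 mM was -0.016 and became 0.00154 with upper quartile scaling, 0.0125 with no filter and 0.0259 with nuclear genes only. CLC-D in era1 against WT at 2 mM was 0.0091 and became -0.00887 with upper quartile scaling. The cause was not tested. The nuclear alternative was chosen after seeing the data, since chloroplast and mitochondrial genes took 1.92% to 2.57% of gene counts at 10 mM and 2.99% to 4.34% at the other doses. Of 1944 values with 1 library left out, 48 changed sign, 0 of them past the threshold, and 27 calls were lost. In era1 at 0 against 10 mM the values ran for CLC-E from -0.18 to 0.19. In era1 at 2 against 10 mM the values ran for CLC-G from -0.086 to 0.080. For the genotype dependence at 0 mM the values ran for CLC-C from -0.064 to 0.15. For the genotype dependence at 2 mM the values ran for CLC-A from -0.057 to 0.043, for SLAC1 from -0.14 to 0.61, for CLC-F from -0.63 to 0.24, for CLC-B from -0.35 to 0.089. In WT at 0 against 10 mM the values ran for CLC-D from -0.22 to 0.013, for CLC-B from -0.019 to 0.14. In WT at 0 against 2 mM the values ran for SLAC1 from -0.36 to 0.57, for SLAH3 from -0.15 to 0.016, for CLC-F from -0.16 to 0.70. Between genotypes at 10 mM the values ran for CLC-E from -0.025 to 0.25, for SLAC1 from -0.23 to 0.52. Between genotypes at 2 mM the values ran for CLC-B from -0.18 to 0.26, for CLC-D from -0.057 to 0.072, for CLC-F from -0.053 to 0.79, for CLC-G from -0.031 to 0.12. In era1 at 0 against 2 mM the values ran for CLC-F from -0.11 to 0.16. With the replicate number as a block, 7 members passed in WT at 0 against 10 mM, as without it, and the count of members was equal in each of the 12 contrasts; all genes called in WT at 0 against 10 mM went from 9843 to 9800. Of 45 same-numbered pairs, 14 correlated best with their own number. The low counts of SLAC1 and CLC-F limit their values most, and SLAH1 could not be tested.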
